A study of Mus musculus with 2931 samples.

Results

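Retinoic acid metabolism and receptors were described through 9 genes of the 18072 in a table of reads from single endothelial cells (EC), which form the inner wall of vessels, of the mouse lung. The members are Cyp26b1, Aldh1a1, Aldh1a2, Aldh1a3, Rara, Rarb, Rarg, Stra6 and Crabp2. They were selected on measured values of these same cells, over the subtype labels, between P7 and P21 and under hyperoxia, so values along those axes are given as descriptions with no p-value, and nothing is read from the counts of calls printed for them. The study took EC from the distal lung on the embryonic day E18.5 and, in normal air, on the postnatal days P1, P7 and P21; a further group was taken at P7 after hyperoxia, the breathing of air with raised oxygen, which is used in newborn rodents as a model of lung injury. Each of the 5 groups had 1 female and 1 male mouse by name. Their strain, the oxygen level and the time in oxygen are not given in the sources used here. Cells were sorted into plates and each cell was sequenced as its own library. All 2931 cells carried 1 of 10 EC subtype labels of the authors, and these labels were used as they stand.

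Retinoic acid is a signal made from vitamin A. Stra6 takes up retinol from its carrier protein at the cell surface, dehydrogenases and reductases convert retinol and retinaldehyde into each other, and the Aldh1a enzymes oxidize retinaldehyde to retinoic acid in a step that cannot be reversed. Crabp2 carries retinoic acid to the nucleus, where Rara, Rarb and Rarg bind DNA together with an RXR partner and switch target genes on when the ligand is present. Cyp26b1 hydroxylates retinoic acid and so lowers its level in the cell that expresses it. In the lung, retinoic acid takes part in bud formation in the embryo and in the growth of alveoli after birth.

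All 9 members were found as protein-coding genes in GENCODE M21 (GRCm38), with Cyp26b1 on the minus strand of chr6:84571414-84593908 and Rarb on the minus strand of chr14:16430839-16819156. Of the other receptors, Rara lies at chr11:98927818-98974942 (plus strand) and Rarg at chr15:102234938-102257517 (minus strand). The synthesis enzymes lie at chr19:20492715-20643465 (Aldh1a1, plus), chr9:71215789-71296243 (Aldh1a2, plus) and chr7:66390890-66427517 (Aldh1a3, minus), Stra6 at chr9:58063788-58153996 (plus) and Crabp2 at chr3:87948666-87953376 (plus). RefSeq (GRCm38.p6) gave promoter windows for 7 of the 9 members. Each window of 300 bases was searched on both strands for a direct repeat of half-sites spaced by 5 bases, the classical arrangement for a receptor pair of RAR and RXR. A half-site was AGGTCA, or the variant AGTTCA, or with G as its first base the variant GGGTCA, or likewise the variant GGTTCA. The repeat was found in 0.0974% of all 32851 windows, and among the 15 windows of the members only in the 1 of Rarb. There it starts at position -53 from the start of a RefSeq transcript that begins inside the Rarb gene as GENCODE draws it, far from the outer end of the gene, and some GENCODE transcripts include the repeat in their first exon. A match of letters is a description and shows no binding. The repeat is printed for Rarb, a receptor that is also a textbook target of retinoic acid, at chr14:16575513-16575529. For comparison, the 152 bases just before the GENCODE start of Cyp26b1, the member with the widest range of levels, are printed from chr6:84593909-84594060. Both are on the minus strand, 5′ to 3′. Capitals mark the half-sites, and the Cyp26b1 stretch holds none.
Rarb: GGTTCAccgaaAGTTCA
Cyp26b1: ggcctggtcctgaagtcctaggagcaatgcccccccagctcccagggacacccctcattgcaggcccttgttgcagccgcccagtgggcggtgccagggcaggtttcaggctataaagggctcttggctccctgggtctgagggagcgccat

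A mouse had between 212 and 359 cells and between 56564316 and 331392982 reads, with the fewest reads in the male P7 mouse. Levels are reads per 1000000 (CPM) of the reads summed over the cells of a mouse and subtype, so a level can come from many cells or from 1. The summed endothelial markers Pecam1, Cdh5, Cldn5, Tie1 and Kdr reached 5520 to 7600 CPM in the Car4- capillaries of every mouse that had them. Those cells include the labels Early and Late Car4-, and are the general capillaries of the lung. The summed Car4+ markers reached 7330 to 14800 CPM in Car4+ capillaries against 363 to 1050 CPM in Car4- capillaries. Whether a mouse name stands for 1 animal is not given, so the spread between the mice of a group may be partly technical. In each group sex, mouse and, in large part, sequencing run go together and cannot be told apart.

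Detection separated the members into 2 kinds. Rara was read in 1473 cells (50.3%), Rarg in 754 cells (25.7%) and Cyp26b1 in 600 cells (20.5%). The other 6 members were read in between 17 cells (Crabp2) and 113 cells (Rarb). The members of this second kind rest on few cells: 1 cell gave 64.3% of all Aldh1a1 reads, 90.7% of Aldh1a2, 47.8% of Stra6 and 42% of Crabp2, but only 9.47% of Rarb. Scaled to exon length, the median levels in Early Car4- capillaries were 17.9 CPM per kb for Rara, 6.59 for Rarg, 3.89 for Cyp26b1 and 0.166 for Rarb.

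**Figure D1:**
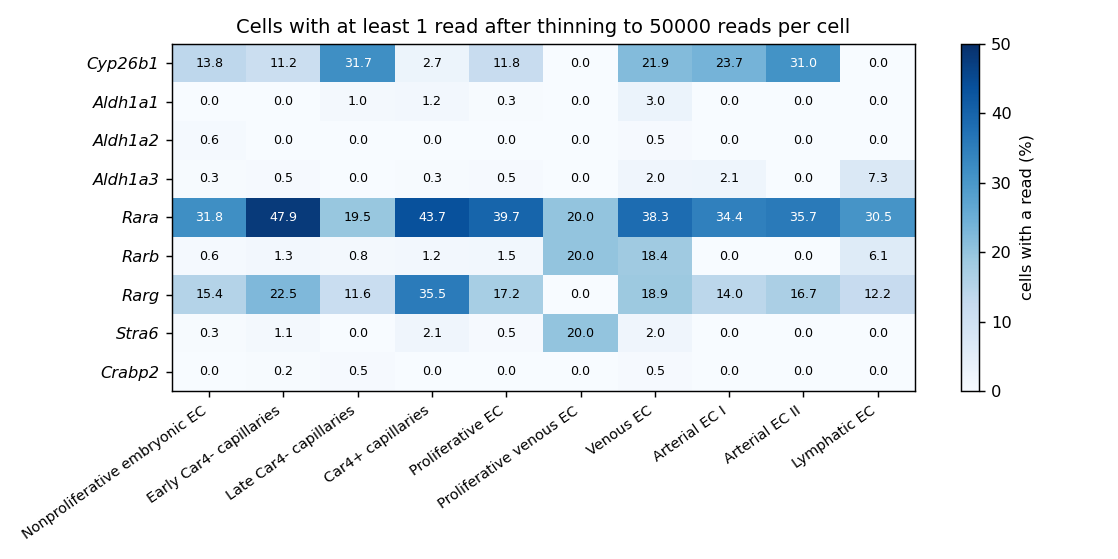
Share of cells with at least 1 read (percent, color and number) for the 9 members (rows) in the 10 subtype labels (columns), after each cell was thinned to 50000 reads and 11 shallower cells were left out. Cells of all mice are pooled, so 31.7% for Cyp26b1 in Late Car4- capillaries is mostly set by the male P21 mouse, where 69.1% of cells had a read against 4.1% in the female P21 mouse. Rara is seen in every column, and Rarb in veins (18.4%) but in no arterial cell.

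Cyp26b1 was the member with the widest range. Over mice, its median level was 58.6 CPM in Arterial EC I (0 to 293 CPM, 7 mice), 29.5 CPM in proliferative EC (1.30 to 88.1 CPM, 9 mice), 24.0 CPM in nonproliferative embryonic EC, 20.8 CPM in Early Car4- capillaries (0.958 to 36.0 CPM, 6 mice), 20.3 CPM in venous EC (6.32 to 91.6 CPM, 9 mice) and 19.4 CPM in Arterial EC II. The ranges of these labels overlapped. In Late Car4- capillaries it ran from 0 to 703 CPM around a median of 6.90 CPM. Car4+ capillaries lay lower, with a median of 0.600 CPM and a highest mouse at 8.68 CPM. In lymphatic EC the highest mouse had 0.381 CPM, and 3 of 82 cells (3.66%) had a read. After thinning 0 of 82 cells had one.

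In Car4- capillaries Cyp26b1 measured 47.9 CPM in the female and 33.2 CPM in the male P1 mouse, and 16.5 and 22.8 CPM in the P7 mice. At P21 the female mouse had 13.1 CPM and the male mouse 701 CPM. The female P21 mouse thus lay under both P7 mice and the male P21 mouse far above every other mouse, and the group mean of 357 ± 486 CPM (SD, n = 2) describes neither. The male P21 mouse alone held 69.2% of all Cyp26b1 reads of the study. Of its 268 Car4- cells, 187 (69.8%) had at least 10 CPM, 156 had at least 100 CPM and 53 at least 1000 CPM. In the female P21 mouse 13 of 272 cells (4.78%) had at least 10 CPM, and its 5 highest cells gave 87.0% of its reads. In the male mouse the 5 highest cells gave 27.2%, so the level there was spread over many cells.

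**Figure D2:**
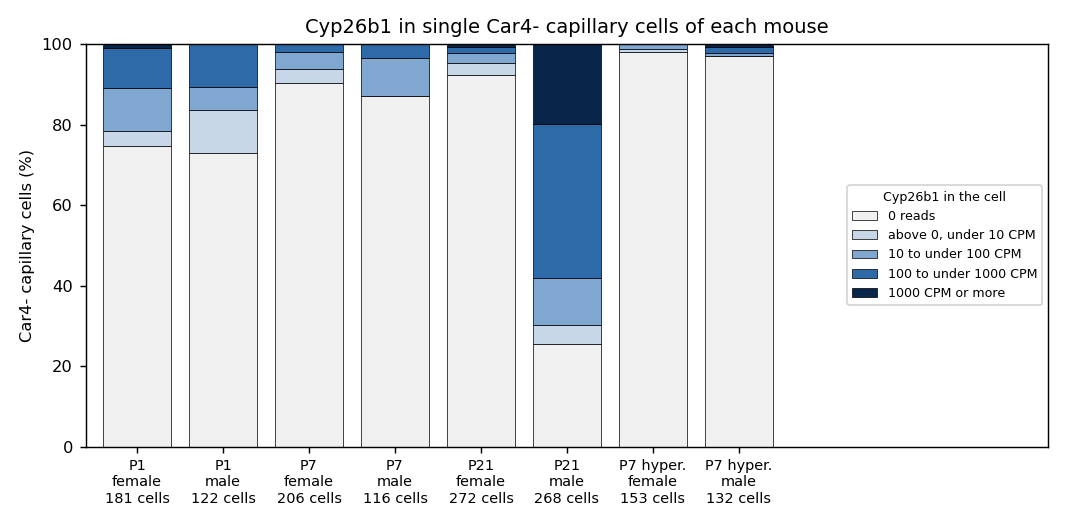
Car4- capillary cells of each mouse (bars, with the number of cells below) divided by their Cyp26b1 level; the vertical axis is the percent of cells. In the male P21 mouse 69.8% of cells reach 10 CPM or more, against 1.31% to 21.5% in the other mice drawn.

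The difference between the P21 mice was present in the CD31 and in the mesench gate, each with its own sequencing run in each mouse; 1 further cell of each mouse came from the CD45 gate. In the male mouse, CD31-sorted cells of run DC30 had 612 CPM (184 cells) and cells of the gate labelled mesench in run DC35 had 832 CPM (83 cells). In the female mouse, the same gates gave 14.7 CPM in run DC23 (221 cells) and 6.28 CPM in run DC21 (50 cells). After thinning to 50000 reads, a read was seen in 68.5% and 72.3% of the male cells and in 4.52% and 4.00% of the female cells of these gates. Run DC30 also held the male P7 mouse, with 5.77 CPM in 111 CD31-sorted Car4- cells, and the male hyperoxia mouse, with 9.45 CPM in 132. Cells of the male P21 mouse had a median of 1831 detected genes against 3087 in the female P21 mouse; the part of this in the result was not tested.

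Among 4575 genes with at least 50 CPM in Car4- capillaries of either P21 mouse, the median ratio of the higher to the lower mouse was 1.40. Cyp26b1 had a ratio of 53.6, and 4 other genes had one as large: Xist and Tsix (303 and 83 CPM in the female mouse) and the Y-linked Ddx3y and Eif2s3y (99.6 and 66.0 CPM in the male mouse). These 4 genes are set by sex itself and match the labels. At P1 and P7 the ratio of Cyp26b1 between the mice was 1.44 and 1.38, where the median ratios of all such genes were 1.53 and 1.35. In the hyperoxia mice the ratio was 9.90, from 0.955 CPM (female, 3 cells with a read) and 9.45 CPM (male, 4 cells). Cyp26b1 thus lay below the 50 CPM that the compared genes reach. Their median ratio was 1.31, and the 4 of 4590 genes with a ratio as large were Xist, Tsix, Ddx3y and Eif2s3y. At P1 the female mouse was the higher for Cyp26b1. Marker sums of other cells in the same Car4- sums were 17.8 CPM (female) and 16.7 CPM (male) for 6 fibroblast genes, 8.92 and 26.9 CPM for 4 mural genes, 0.113 and 0.130 CPM for 3 mesothelial genes, 131 and 180 CPM for 5 epithelial genes and 27.9 and 25.6 CPM for 5 immune genes, while the Cyp26b1 levels were 13.1 and 701 CPM. In the Car4+ capillaries Cyp26b1 was 4.86 CPM in the female and 8.68 CPM in the male P21 mouse, after 5.86 and 0 CPM at P7. Within run DC30 the male Car4+ cells had 20.1 CPM at P21 (44 cells) and 0 CPM at P7 (18 cells). The 6 CD31-sorted proliferative EC of the male P21 mouse had 97.7 CPM, with reads in 3 cells.

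**Figure D3:**
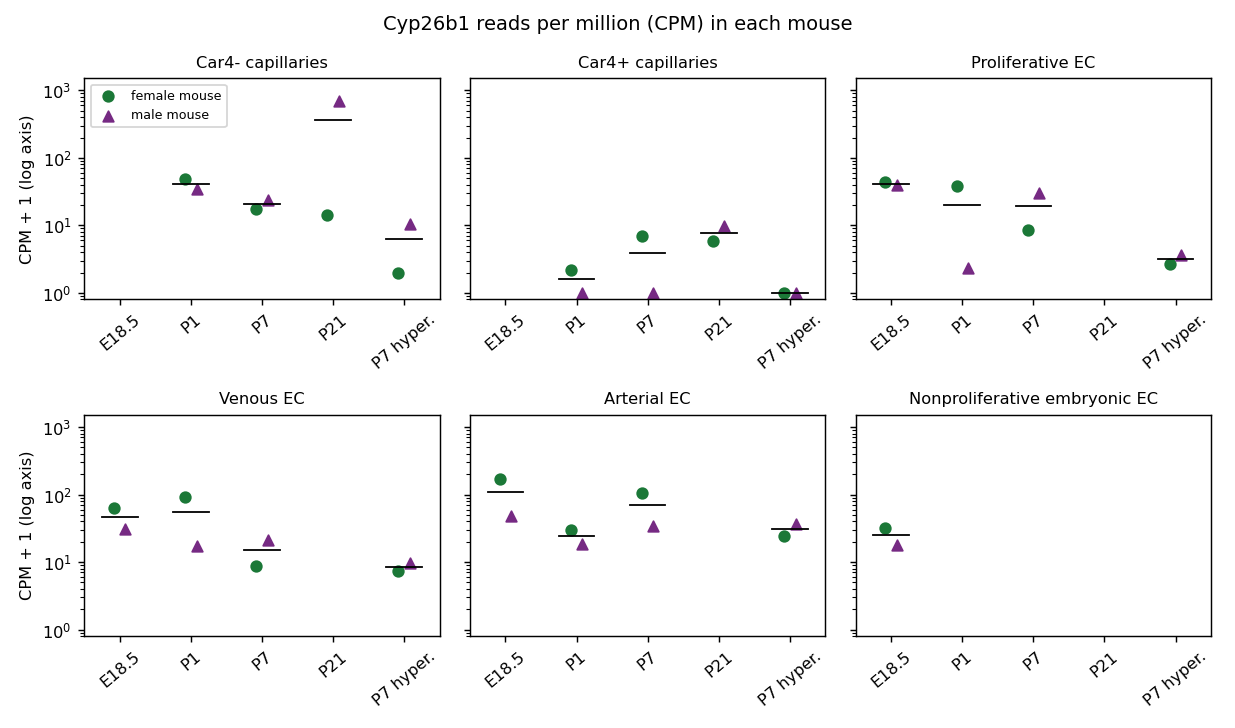
Cyp26b1 level (CPM + 1, log axis) in each mouse by group, 1 panel per class; circles are female and triangles male mice, and a line marks the mean of the 2 mice. Groups in which a mouse had fewer than 8 cells are not drawn. The male P21 mouse stands at 701 CPM in Car4- capillaries, while the hyperoxia values lie between 0 and 36.2 CPM.

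The edgeR fit over the mice put the change of Cyp26b1 from P7 to P21 in Car4- capillaries at 4.39 on the log2 scale (SE 1.35). It rests on the male P21 mouse: without that mouse the estimate was -0.56 (SE 1.05), and without the female P21 mouse 5.38 (SE 0.885). edgeR called 0 of the 8 members tested in this comparison, where 0.266% of 14660 genes were called.

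Under hyperoxia at P7, Cyp26b1 in Car4- capillaries was 0.955 CPM in the female and 9.45 CPM in the male mouse, both below the P7 mice in normal air at 16.5 and 22.8 CPM. The estimated change was -1.92 (SE 1.22), and it depended on single mice: it was -4.40 (SE 1.48) without the male and -1.06 (SE 1.22) without the female hyperoxia mouse. At least 10 CPM was seen in 1.31% and 3.03% of the hyperoxia cells against 6.31% and 12.9% of the normal cells. The male P7 level depends on few cells: 1 of 5 cells outside the CD31 gate gave 534 of its 666 reads. In CD31-sorted cells alone the normal mice had 17.3 and 5.77 CPM and the hyperoxia mice 0.996 and 9.45 CPM, so that the groups overlapped. In proliferative EC the levels were 7.54 and 29.5 CPM in normal air and 1.65 and 2.59 CPM in hyperoxia (estimate -3.10, SE 1.51), but all 264 reads of the male normal mouse came from 1 cell, and its 33 CD31-sorted cells had 0 reads. Without that mouse the estimate was -1.87 (SE 1.76). Venous EC had 7.87 and 20.3 CPM in normal air against 6.32 and 8.61 CPM in hyperoxia, and arterial EC 105 and 33.0 CPM against 23.3 and 36.2 CPM; in both classes the groups overlapped. The interaction terms, which compare the hyperoxia effect in another class with that in Car4- capillaries in the same mice, were -0.16 (SE 1.73) for proliferative, 1.94 (SE 1.98) for venous, 1.68 (SE 1.72) for arterial EC and -7.10 (SE 6.47) for Car4+ capillaries. In the last class both hyperoxia mice had 0 reads, and 1 cell gave 99.6% of the reads of the normal mice (5.86 and 0 CPM), so that fitted value is no measure of size.

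Before P7 the sign of the Cyp26b1 estimate differed between classes, and no change was called. From P1 to P7 both mice were lower in Car4- capillaries (estimate -1.13, SE 1.19, edgeR adjusted p = 0.75) and both were higher in arterial EC, from 29.1 and 17.6 CPM to 105 and 33.0 CPM (estimate 1.63, SE 1.06, edgeR adjusted p = 0.997). The difference between these effects was not tested. From E18.5 to P1 arterial EC went from 171 and 46.3 CPM to 29.1 and 17.6 CPM (estimate -2.35, SE 1.08, edgeR adjusted p = 0.967). Venous EC had 61.7 and 29.6 CPM before birth against 91.6 and 16.3 CPM on P1, and proliferative EC 42.5 and 38.0 CPM before birth against 37.3 and 1.30 CPM on P1. Nonproliferative embryonic EC at 31.3 and 16.7 CPM lay below the Car4- capillaries of P1 without overlap (estimate -0.84, SE 1.12). Age and subtype label differ together there, so this is a description.

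Over 50 sums of a mouse and a subtype with at least 8 cells, the genes whose log2 levels ran most like Cyp26b1 among 9137 genes were Cadps2 (Pearson's r = 0.71), Hbegf (0.68) and Fam171a1 (0.66). The sums share mice and runs, so these values are descriptions. Hbegf encodes a growth factor of the EGF family.

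The 3 enzymes that make retinoic acid were read in few cells. Aldh1a1 had 0 reads in the Car4- capillaries of all P1 and P7 mice in normal air. At P21 the female mouse had 5.11 CPM from 14 of 272 cells, and the male mouse 31 CPM from 2 of 268 cells, of which 1 gave 3828 of 3829 reads. Pooled over the P21 mice the level was 15.2 CPM, 1080-fold the level that 3 reads over the P7 group would give, and 225-fold without that cell. Reads came bunched in few cells, so these folds are no lower bounds of a change. In Car4+ capillaries the P21 mice had 9.96 CPM (4 cells) and 0.0564 CPM. Under hyperoxia Aldh1a1 was read in venous EC of both mice, at 6.65 CPM (4 of 23 cells) and 12.7 CPM (3 of 30 cells), where the 44 venous cells of normal P7 mice had 0 reads. That is 110-fold the level that 3 reads over the normal group would give, and 69.1-fold without the highest cell. Only 7 cells carry it, so these folds are no lower bounds either. Car4- capillaries of the hyperoxia mice had 0 reads and 1 read.

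Aldh1a2 was read in 24 cells, of which 23 had 1 to 3 reads. The remaining cell was a venous cell of the female P1 mouse with 243 reads, which set the 22.3 CPM of that class. Aldh1a3 was read in 68 cells and reached its highest mouse, 10.2 CPM, in P7 venous EC through 1 cell. Lymphatic EC had the highest share of Aldh1a3 cells after thinning, 7.32% (95% Clopper-Pearson interval 2.73% to 15.2%, 82 cells), against 0% to 2.15% in the other labels. Such intervals cover counting error only.

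Stra6, the retinol receptor at the cell surface, was read in 63 cells. Car4+ capillaries had 10.4 CPM (female) and 0 CPM (male) at P1, 61.2 and 0.388 CPM at P7, and 0 reads in both P21 mice (57 and 77 cells). The highest cell gave 2186 of the 2551 reads at P7. Pooled over the P7 mice, the level was 1780-fold that of 3 reads over the P21 group, and 258-fold without that cell. Only 5 cells had a read at P7, and the male P7 mouse had 3 reads. Both figures thus rest on the female mouse and are no lower bounds of a change. In Car4- capillaries, too, both P21 mice (0.0461 and 0.0324 CPM) lay below the P7 mice (1.76 and 1.16 CPM; estimate -5.07, SE 2.76). Of the labels, proliferative venous EC, a label with 10 cells in the hyperoxia mice, had the highest median at 28.9 CPM (43.2 and 14.6 CPM) from 3 cells. Venous EC of the hyperoxia mice held 286 reads in 2 cells (female) and 12 reads in 1 cell (male), against 0 and 9 reads in normal air. Crabp2, the carrier of retinoic acid, was read in 17 cells, and 5 cells gave 96.9% of its reads. It reached 20.8 CPM in venous EC of the female P1 mouse from 2 cells, 3.48 CPM in venous EC of the female hyperoxia mouse from 1 cell, and 1.18 CPM in the Car4- capillaries of the female P21 mouse from 6 of 272 cells. In Car4+ capillaries Crabp2 had 0 reads in 332 cells.

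Rara and Rarg were read in every subtype label. Rara had median levels of 84.0 CPM in Car4+ capillaries (29.0 to 118 CPM, 8 mice), 78.2 CPM in Early Car4- capillaries (56.4 to 94.5 CPM, 6 mice), 73.3 CPM in Arterial EC I (31.2 to 209 CPM, 7 mice), 51.0 CPM in proliferative EC and 39.0 CPM in venous EC (27.0 to 66.8 CPM, 9 mice). Neighbours in this order overlapped. Rarg was highest in Car4+ capillaries, with a median of 41.6 CPM (24.9 to 97.0 CPM), followed by Early Car4- capillaries at 28.1 CPM (14.8 to 42.7 CPM), and these too overlapped. After thinning, a Rarg read was seen in 35.5% of Car4+ cells (interval 30.4% to 41.0%) and 22.5% of Early Car4- cells (19.7% to 25.4%). Cells of all mice are pooled, so the intervals leave out the spread between mice, and the pools differ in their days.

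Rarb had another pattern. In venous EC its median was 9.78 CPM (1.48 to 69.2 CPM), and all 9 mice with at least 5 venous cells had reads. Venous EC held 59 of the 113 cells with a Rarb read, in 29.1% of its 203 cells. The male E18.5 mouse had the highest venous level at 69.2 CPM, of which 1 cell gave 78.9%. The medians were 4.49 CPM in proliferative venous EC and 1.89 CPM in lymphatic EC, and every other label had a median under 1 CPM. In the arterial labels 0 of 96 and 0 of 42 cells had a Rarb read, which after thinning allows shares of up to 3.23% and 7.14%. By mouse, the venous levels of Rarb were 3.61 and 69.2 CPM at E18.5 (female and male), 9.78 and 20.9 CPM at P1, 20.9 and 6.14 CPM at P7 and 43.6 CPM in the female P21 mouse, and the days overlapped. Between 4 and 11 cells of a mouse carried these reads. The pattern is a description.

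**Figure D4:**
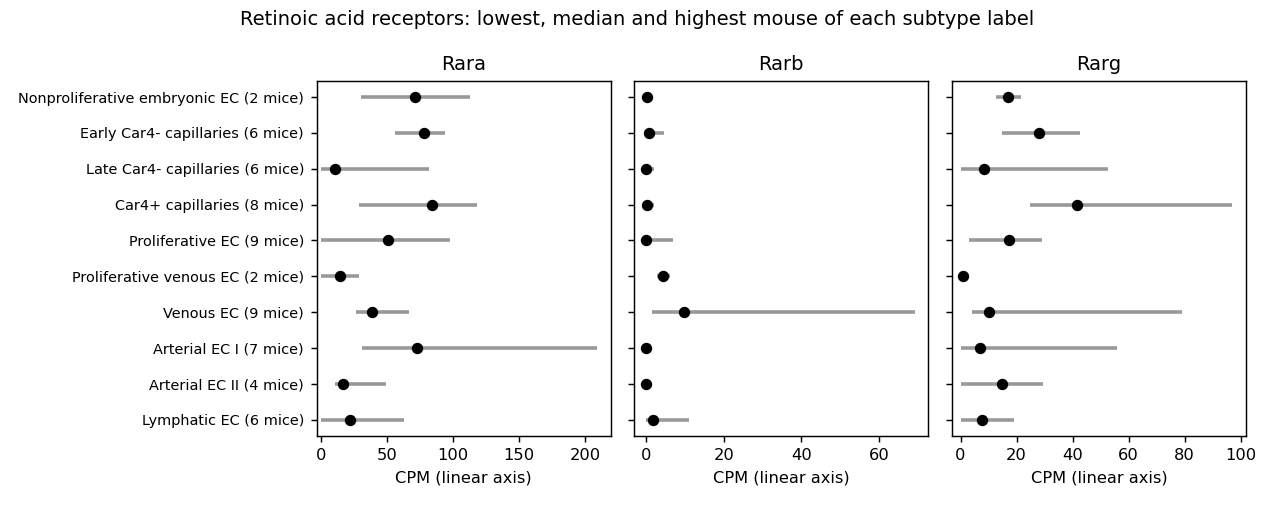
Levels of Rara, Rarb and Rarg (CPM, linear axes that differ between panels) in the 10 subtype labels; points are medians over mice and lines run from the lowest to the highest mouse with at least 5 cells. Rara and Rarg extend over most labels, whereas Rarb rises above 12 CPM only in venous EC, where the highest mouse has 69.2 CPM.

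Over time Rara in Car4- capillaries was 87.5 and 93.9 CPM at P1, 63.6 and 56.8 CPM at P7, and 82.4 CPM in the female but 21 CPM in the male mouse at P21. The P1 mice lay above the P7 mice (estimate -0.71, SE 0.519, edgeR adjusted p = 0.624). Rarg was 39.5 and 18.3 CPM at P1, 31.8 and 33.6 CPM at P7, and 42.8 and 15.9 CPM at P21. The male P21 mouse, in which Cyp26b1 was high, thus had the lowest Rara and the lowest Rarg but 1 (15 CPM in the female hyperoxia mouse) among the Car4- capillaries of the postnatal mice. In Car4+ capillaries it also had the lowest levels of both, at 29.0 CPM for Rara and 24.9 CPM for Rarg. Its Cyp26b1 there was 8.68 CPM, the highest mouse of that class. Any link between these levels, or with the fewer genes detected in its cells, was not tested. In venous EC the E18.5 mice had 79.1 and 36.8 CPM of Rarg, the P1 mice 66.7 and 10.3 CPM, and the P7 mice 14.1 and 9.49 CPM. Both E18.5 mice thus lay above both P7 mice, while P1 overlapped P7 (P1 to P7 estimate -1.67, SE 1.28, edgeR adjusted p = 1.0). In arterial EC Rara went from 60.9 and 31.8 CPM before birth to 86.9 and 88.9 CPM on P1 (estimate 0.80, SE 0.981, edgeR adjusted p = 1.0). Within run DC30 the male P21 and P7 mice had 25.2 and 56.3 CPM of Rara, and 14 and 33.3 CPM of Rarg.

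Hyperoxia left Rara in Car4- capillaries at 83.4 and 61.1 CPM (estimate 0.23, SE 0.517), overlapping normal air. Rarg was 15 and 26.8 CPM, below both normal mice (estimate -0.67, SE 0.621), and in venous EC 4.00 and 6.15 CPM against 14.1 and 9.49 CPM (estimate -1.20, SE 1.27). In Car4+ capillaries the hyperoxia mice had 41.6 and 69.6 CPM of Rarg against 35 and 48.1 CPM, and the groups overlapped. Venous Rarb was 9.55 and 1.48 CPM in hyperoxia against 20.9 and 6.14 CPM, which also overlapped. In proliferative EC both hyperoxia mice had more Rara (81.7 and 80.0 CPM) than the normal mice (32.6 and 67.1 CPM; estimate 0.70, SE 0.672). From E18.5 to P1 Rara in proliferative EC went from 40.5 and 19.6 CPM to 97.7 and 51.0 CPM (estimate 1.37, SE 0.68, edgeR adjusted p = 0.656), where P1 rests on 13 and 9 cells.

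Genes whose levels ran most like Rara over the same 50 sums were Sh2b3 (r = 0.82), Tsc22d4 (0.75) and Stk25 (0.75). For Rarg they were Mark2 (0.74), Arid3b (0.71) and Cactin (0.70).

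**Figure D5:**
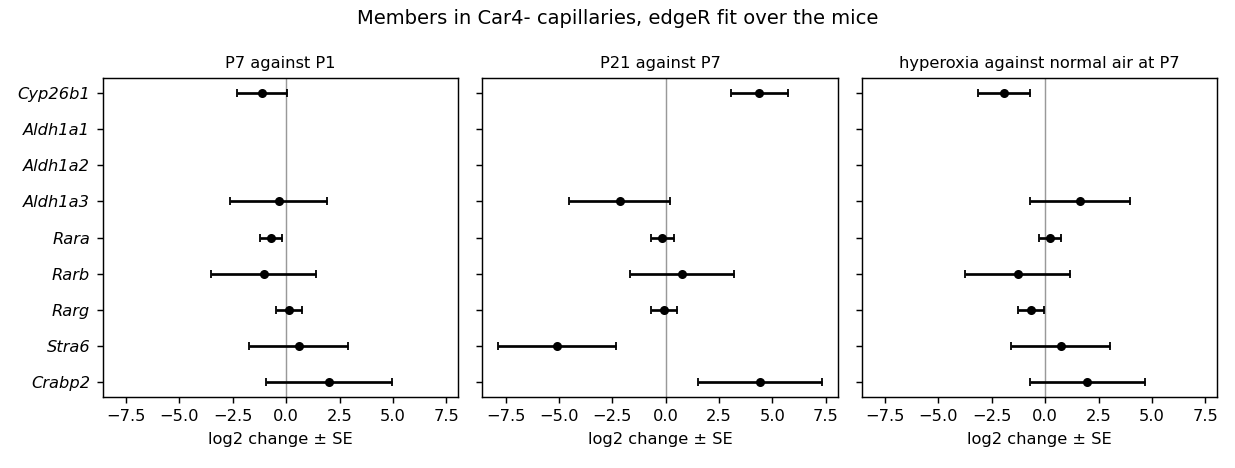
Estimated log2 changes of the members in Car4- capillaries (points) with their standard errors (bars, derived from the F-test) in 3 comparisons. Members with 0 reads in both mice of a group, or too few reads to be tested, are not drawn. The estimate of 4.39 for Cyp26b1 at P21 stands beside estimates near 0 for Rara and Rarg.

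No member was called by edgeR in any comparison, and the calls over all genes were few. In Car4- capillaries 0 of 8 members were called from P1 to P7 (0% of 14660 genes) and under hyperoxia (0.0136%). In Car4+ capillaries 0 of 5 members were called from P1 to P7 (0% of 12284 genes), from P7 to P21 (0.00814%) and under hyperoxia (0%). In proliferative EC 0 of 6 members were called in 3 comparisons (0% of 13102 genes in each). In venous EC 0 of 7 were called from E18.5 to P1 (0.0162% of 12326 genes), from P1 to P7 (0%) and under hyperoxia (0%), and in arterial EC 0 of 3 from E18.5 to P1 (0.0167% of 11951 genes), from P1 to P7 (0%) and under hyperoxia (0%). Between embryonic EC and the Car4- capillaries of P1 the count was 0 of 8 (0.494% of 14967 genes). The 4 interaction tests called 0 members and 0% of genes. The choice of members did not use the comparisons of E18.5, P1 and P7 within a class. Among these, 1 member had an unadjusted edgeR p under 0.05, Cyp26b1 in arterial EC from E18.5 to P1, where 3.88% of all genes did. DESeq2 and limma called 0 members in them. Embryonic EC against Car4- capillaries sets subtype labels against each other, an axis that the choice did use. The members' median change in Car4- capillaries was -0.18 from P1 to P7 (all genes -0.04), 0.34 from P7 to P21 (all genes 0.06) and 0.48 under hyperoxia (all genes -0.01). The medians from P7 to P21 and under hyperoxia lie on axes that chose the members, so nothing is read from them. In each median, members with few reads weigh as much as Rara, Rarg and Cyp26b1.

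The wider pathway was counted from lists of other genes. Of 13 genes that oxidize retinol or reduce retinaldehyde, 10 were in the table, and Adh1, Adh5, Dhrs3, Dhrs4, Rdh5, Rdh11 and Rdh14 reached a mean of 50 CPM in some class. Dhrs3, a reductase that turns retinaldehyde back to retinol, was highest in Car4+ capillaries, at 585 to 1510 CPM, with both P21 mice (1310 and 1510 CPM) above all others there. In Car4- capillaries Dhrs3 had 146 to 506 CPM, while arterial EC (141 to 922 CPM) and proliferative EC (163 to 652 CPM) overlapped the Car4+ range. Adh5 lay between 108 and 414 CPM in all classes. Adh1 in venous EC had 0.0914 and 13.8 CPM at P1, 93.4 and 155 CPM at P7 and 137 and 183 CPM under hyperoxia. The venous median over 8 mice was 79.3 CPM, and the E18.5 levels are not given here. Proliferative EC held the highest Adh1 mouse (3.62 to 609 CPM). There the estimates were 6.08 (SE 1.41, edgeR adjusted p = 0.335) from E18.5 to P1 and -5.16 (SE 1.35, edgeR adjusted p = 0.417) from P1 to P7. Both rest on P1 sums of 13 and 9 cells. From P1 to P7 the estimate in venous EC had the opposite sign (3.94, SE 1.49), and the difference was not tested.

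Of 12 genes of binding, uptake and storage, 10 were in the table, and those that reached 50 CPM include Fabp5, Lpl and Rbp7. Fabp5, a carrier of fatty acids and retinoic acid, had 257 to 770 CPM in venous EC against 4.62 to 27.5 CPM in Car4- capillaries. Arterial EC had 0 to 400 CPM of Fabp5, which overlapped venous EC. Lpl, which frees lipids from lipoproteins, had 134 to 302 CPM in Car4- against 0 to 28 CPM in Car4+ capillaries. Rbp7 stayed at 0 to 8.90 CPM in Car4- capillaries and reached 182 CPM in 1 arterial sum. The other 2 Cyp26 hydroxylases reached 50 CPM in no class, and only Cyp26a1 was found in the table.

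All 10 partner receptors and coregulators were in the table, and those that reached 50 CPM include Ncor1, Ncoa2, Ncoa3, Nrip1 and Rxrb. Ncor1, a corepressor bound by receptors without ligand, had 209 to 348 CPM in Car4- capillaries and 145 to 379 CPM in venous EC. The RXR partner Rxrb had a median of 21.1 CPM in Car4- capillaries (6.23 to 35 CPM). Of 12 targets, 10 were in the table, and Hoxa4, Hoxa5, Hoxb5 and Tgm2 reached 50 CPM. Tgm2, a transglutaminase induced by retinoic acid in many cells, had 233 to 524 CPM in venous EC and an overlapping 68.9 to 381 CPM in arterial EC. In Car4- capillaries it had 91.8 and 74.1 CPM at P7, 168 and 136 CPM at P21 and 60.0 and 26.6 CPM under hyperoxia. In Car4+ capillaries it had 0.0240 and 0 CPM at P7 (42 and 24 cells), 12.3 and 50.2 CPM at P21 and 5.52 and 12.6 CPM under hyperoxia. From P1 to P7 the estimate in these cells was -8.13 (SE 3.21), so P7 was low against P1 too. With P7 this near to 0, the fitted size is no measure. Hoxa5, a homeobox gene of the lung, had 68.5 to 332 CPM in Car4- capillaries. None of the listed genes was called by edgeR in any of the 20 comparisons. In Car4- capillaries from P7 to P21 all 9 partners and coregulators tested had an estimate above 0 (median 0.59) and 6 of 8 targets did (median 1.61), where 52.7% of all genes did (median 0.06). From P1 to P7 in the same cells 1 of 9 partners and coregulators (median -0.71) and 1 of 8 targets (median -1.45) had an estimate above 0, against 48.4% of all genes (median -0.04). Both comparisons use the P7 mice. From P1 to P7 the other classes were alike for partners and coregulators, with 2 of 9 above 0 in each. Their medians were -0.37 in Car4+ capillaries, -1.21 in proliferative, -0.82 in venous and -0.75 in arterial EC. Of the targets, 2 of 7, 2 of 8, 4 of 6 and 2 of 6 were above 0 in these classes. From P7 to P21 in Car4+ capillaries, 6 of 9 partners and coregulators (median 0.39) and 5 of 7 targets (median 1.43) were. In venous EC at P1 against E18.5, 7 of 8 retinol and retinaldehyde genes had an estimate below 0 (median -1.53), where 54.5% of all genes had one above 0 (median 0.18). The E18.5 venous sums hold 11 cells in each mouse. In the same comparison 5 of 8 were below 0 in proliferative EC (median -0.39) and 6 of 8 in arterial EC (median -0.53). In venous EC from P1 to P7 4 of 8 were below 0. Many such counts were made, and most are not given here.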

How the data were processed

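Each cell was its own plate-based Tn5 library, per the labels' protocols. The authors deposited whole-number counts of reads per gene and cell, without molecular identifiers, so copies of 1 molecule cannot be removed. The submitters' processing notes name STAR 2.5.2b, HTSeq 0.10 and the build GRCh38, a human build; the build behind the counts is not settled, strand is not given, and coordinates printed here are from GENCODE M21 and RefSeq (both GRCm38). Cells had 42095 to 2967985 reads (median 621406). The CD31 gate gave 2694 cells, the mesench gate 224 and the CD45 gate 13. No cell was filtered and no doublet caller was run. No columns of 2 cells were identical.

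The members and all gene lists were chosen with earlier results of these data known, and levels over subtypes, from P7 to P21 and under hyperoxia had chosen the members. Reads were summed per mouse and class, Early and Late Car4- together and Arterial EC I and II together, with at least 8 cells for a test and 5 for a level. edgeR 4.0.16 (R 4.3.3; TMM, filterByExpr, quasi-likelihood F-test) was fitted per class over its groups, tested on simulated data first, and p was adjusted by Benjamini-Hochberg over all genes tested, with calls under 0.05. n counts mouse names. The SE given for edgeR was derived from its test, as the absolute log2 change divided by the square root of F. DESeq2 1.42.0, limma 3.58.1 on mean CPM (pseudocount 1) and other settings were alternatives. Genes named are all members, listed pathway genes with a mean of at least 50 CPM in a class, and for members at that level the 3 genes with the highest correlation of log2(CPM + 1). Some listed pathway genes are not reported here.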

Additional observations from a re-analysis of the deposited data

Results flagged for a closer look

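The estimates for Cyp26b1 from P1 to P7 had opposite signs in different vessel classes, and edgeR called neither. Both P7 mice lay below both P1 mice in Car4- capillaries (log2 change -1.13) and above both in arterial EC (log2 change 1.63). The male P7 levels rest on little: 1 Car4- cell gave 534 of 666 reads, and 10 arterial cells held 87 reads. The difference between these changes was not tested.

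From P7 to P21 some members moved in opposite directions in the female and the male mice, and these differences were not tested, since each sex is 1 mouse per group. In Car4- capillaries Cyp26b1 reached 13.1 CPM in the female and 701 CPM in the male P21 mouse, from 16.5 and 22.8 CPM at P7. Rara in the same cells reached 82.4 CPM (female) and 21 CPM (male), from 63.6 and 56.8 CPM. Rarg in the same cells reached 42.8 CPM (female) and 15.9 CPM (male), from 31.8 and 33.6 CPM, and in Car4+ capillaries 41.6 CPM (female) and 24.9 CPM (male), from 35 and 48.1 CPM.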

How the results depend on the processing

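The number of members called was compared under 305 alternatives over 20 comparisons, and it stayed at 0 in 298. In Car4- capillaries from P7 to P21 it was 1 without a filter on low counts (Aldh1a1) and 1 with limma on mean CPM (Aldh1a1), and it ran from 0 to 1 when each mouse was left out in turn. The member was Cyp26b1 without the female P21 mouse, and Aldh1a1 without either P1 mouse or without the male hyperoxia mouse. In Car4+ capillaries from P7 to P21 it was 1 with DESeq2 (Stra6). All these calls lie on the axis from P7 to P21 that chose the members, so they describe the settings and support nothing about the genes. With sex as a replicate block, the only pairing the labels allow and not one of animals, 0 members were called, and the change of Cyp26b1 in Car4- capillaries from P7 to P21 was 3.14 in place of 4.39; without the male P21 mouse it was -0.56. Among 1754 alternative log2 changes of the members, 148 moved by more than their standard error; with 0 members called at the outset, no called value could change sign. Among 828 alternative levels, 58 moved by more than the SD between mice, 30 of them after thinning to 50000 reads per cell. The hyperoxia change of Cyp26b1 in Car4- capillaries was -0.56 after thinning, -1.18 in CD31-sorted cells and -4.4 without the male hyperoxia mouse, against -1.92; the causes were not tested. The coverage label as the library total was chosen after seeing the data. For members read in few cells, 1 cell can set a level.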
